A study of Arabidopsis thaliana with 24 samples.

Results

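The plasma membrane intrinsic proteins (PIPs) are the aquaporins of the plant plasma membrane, and 10 of their genes were followed here through a cold treatment of Arabidopsis thaliana seedlings. They are PIP1-1 (AT3G61430), PIP1-2 (AT2G45960), PIP1-3 (AT1G01620), PIP1-4 (AT4G00430) and PIP1-5 (AT4G23400) of the PIP1 group, and PIP2-1 (AT3G53420), PIP2-2 (AT2G37170), PIP2-5 (AT3G54820), PIP2-6 (AT2G39010) and PIP2-7 (AT4G35100) of the PIP2 group, written with a hyphen as most of the deposited symbols are, where the literature often has a semicolon. The genes were listed by locus identifier, with earlier results of these data known, and all 10 were found among the 32833 genes of the deposited table. Transcripts were measured by RNA sequencing of whole seedlings grown on MS medium, in a study of the splicing factor UAP1 and the cold. The groups were uap1-1, uap1-2 and wild type (WT), each with 4 libraries from seedlings held at 4 °C for 24 h and 4 from seedlings without cold, 24 libraries in all. Both mutants are homozygous T-DNA insertion lines, WT is Col-0, and all groups share the Col-0 background. The labels give the age as 11 days at the start of treatment and 12 at harvest in one place, and as 10 days in another. No gene carried the name UAP1 in the table or in the annotation, so the mutated gene itself was not checked here. Because whole seedlings were sampled, fewer cells of a type and less RNA per cell cannot be told apart in any of the values below.

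Aquaporins are membrane channels that let water, and in some cases hydrogen peroxide, carbon dioxide or small neutral solutes, cross a membrane along its gradient. PIPs work as tetramers, and members of the PIP1 group generally need a PIP2 partner to reach the plasma membrane, where PIP2 proteins carry most of the water permeability. They set how readily roots take up water and how water spreads through leaf veins, and their activity is tuned by phosphorylation, pH, calcium and trafficking as well as by transcript level.

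The 10 genes lie on 4 chromosomes, and each has 4 coding exons in its first gene model. The 250 bases before the annotated start are shown for 3 genes that rose in the cold and 2 that fell, since these are the genes on which the cold results turn. They are read from RefSeq TAIR10.1 on the gene's own strand, 5′ to 3′, and the deposited gene positions on TAIR10 were the same. Capitals mark a match to the C-repeat element (CRT/DRE), the site bound by CBF cold-response factors, searched as ACCGAC or GCCGAC on both strands.
PIP2-5, chr3:20301509-20301758, plus strand: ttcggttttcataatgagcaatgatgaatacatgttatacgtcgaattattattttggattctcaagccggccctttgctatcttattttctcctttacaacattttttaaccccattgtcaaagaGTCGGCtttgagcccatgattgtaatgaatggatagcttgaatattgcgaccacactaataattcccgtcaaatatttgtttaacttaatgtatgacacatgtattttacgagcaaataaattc
PIP1-4, chr4:187681-187930, minus strand: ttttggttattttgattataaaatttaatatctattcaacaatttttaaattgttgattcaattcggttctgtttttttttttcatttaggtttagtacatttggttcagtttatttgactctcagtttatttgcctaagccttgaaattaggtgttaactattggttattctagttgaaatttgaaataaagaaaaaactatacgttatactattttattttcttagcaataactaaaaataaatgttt
PIP2-6, chr2:16291030-16291279, plus strand: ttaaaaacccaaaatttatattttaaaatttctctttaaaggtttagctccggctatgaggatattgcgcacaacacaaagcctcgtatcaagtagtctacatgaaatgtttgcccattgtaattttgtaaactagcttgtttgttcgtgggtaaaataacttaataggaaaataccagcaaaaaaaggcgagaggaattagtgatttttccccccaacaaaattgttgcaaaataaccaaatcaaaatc
PIP1-5, chr4:12220391-12220640, plus strand: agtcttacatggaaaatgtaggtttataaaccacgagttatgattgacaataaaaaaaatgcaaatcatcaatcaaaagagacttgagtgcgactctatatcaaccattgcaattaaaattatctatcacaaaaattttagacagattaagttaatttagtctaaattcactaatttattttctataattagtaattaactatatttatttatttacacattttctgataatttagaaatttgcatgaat
PIP1-1, chr3:22732993-22733242, plus strand: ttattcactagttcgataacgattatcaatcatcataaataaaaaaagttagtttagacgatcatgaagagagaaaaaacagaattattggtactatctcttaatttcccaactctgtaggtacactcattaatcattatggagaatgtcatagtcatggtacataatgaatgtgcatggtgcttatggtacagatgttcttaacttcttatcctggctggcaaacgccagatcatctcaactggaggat

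Of the 10 genes, PIP2-5 was the 1 member with a CRT/DRE match in this window, on the minus strand between bases 124 and 119 before the start. Such a match stood in 7.09% of 27443 Arabidopsis promoters of this length. Within 1000 bases PIP2-5 held 3 matches, PIP1-1 held 2, and PIP2-1, PIP2-2 and PIP2-6 held 1 each, where 22.3% of promoters held at least 1. The core of the abscisic acid response element (ACGTG) was in no member's 250-base window, against 22.9% of promoters. Within 1000 bases PIP1-2, PIP1-3, PIP1-1, PIP2-5 and PIP2-7 each held a match at 1 place, where 54.4% of promoters held at least 1. In PIP1-2 and PIP1-3 that place matched on both strands, between bases 827 and 822 and between bases 814 and 809 before the start. The evening element (AAAATATCT) was in no member's window of 250 bases (2.36% of promoters) or of 1000 bases (7.24%). CRT/DRE matches thus occurred before genes that rose, fell or were not called, and a match describes letters in a window, not a bound site.

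Read assignment was close to unambiguous for 9 of the 10 genes. A gene's exonic sequence was divided into all its words of 31 bases, and for these 9 genes at most 2.57% of the words occurred elsewhere in the genome. PIP2-2 was the exception, with 19.5% of its words found elsewhere, 237 of 239 of them in PIP2-3. These neighbours are transcribed away from each other 2612 bases apart, and their coding sequences are 94.8% identical. The longest exonic run that both genes hold is 127 bases of coding exon, shown because reads falling wholly inside it cannot be assigned to either gene.
PIP2-2, chr2:15614491-15614617, minus strand, and PIP2-3, chr2:15617953-15618079, plus strand: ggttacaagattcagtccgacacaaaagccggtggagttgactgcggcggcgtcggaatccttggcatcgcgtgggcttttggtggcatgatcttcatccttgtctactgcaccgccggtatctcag

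Levels are given as FPKM, fragment counts scaled for exon length and sequencing depth, recomputed from the deposited counts with TMM-scaled library totals so that libraries are comparable. Library totals ranged over 19289385 to 25501547 counts, and the lowest count of any of the 10 genes in any library was 160, for PIP2-5. Replicates differed by more than counting noise, with chi-square per degree of freedom at 8.78 to 151.9 over 36 replicate pairs. Control libraries were the more spread in TMM factor and in summed PIP level, though not by chi-square in uap1-1. Of them, 4 (WT 1 and 2, uap1-1 2 and uap1-2 3) had TMM factors of 0.8662, 0.9943, 0.9857 and 0.9894. Each of these had the highest or next highest summed PIP level of its group. The other control libraries had factors above 1, and every cold library had one under 1, between 0.8079 and 0.9893. The factor thus differed with treatment, and a value under 1 set these 4 libraries apart among controls only. Calls, summed levels and directions that change without these 4 libraries are given with and without them. Root and shoot marker genes were all detected in every group; NRT2.1 was at 0 in some WT and uap1-2 control libraries.

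Without cold, PIP2-1, an abundant water and hydrogen peroxide channel of the vasculature, and PIP1-2, a major PIP1 of roots and rosettes, stood at the top of the family, and PIP2-5 stood far below all others. In WT control seedlings PIP2-1 averaged 348 ± 136 FPKM and PIP1-2 323 ± 65.8 FPKM (SD, n = 4 each). PIP1-3, PIP2-7, PIP2-6, PIP1-1, PIP1-5, PIP2-2 and PIP1-4 followed in that order, with means between 71.3 and 196 FPKM. PIP2-5 averaged 6.91 ± 3.53 FPKM. Each neighbouring pair in this order overlapped in range except PIP1-4 and PIP2-5, so only the last place was clear of its neighbour.

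After 24 h of cold the order was different below PIP2-1, which kept first place in all 6 groups. In WT cold seedlings PIP2-6 and PIP1-2 came next, at 298 ± 71.2 and 259.9 ± 18.8 FPKM, and their ranges overlapped. PIP2-7, PIP1-4 and PIP1-3 formed a middle tier at 145, 123 and 96.5 FPKM. PIP2-2, PIP1-1, PIP2-5 and PIP1-5 made up a low tier with means between 19.8 and 30.5 FPKM, each overlapping its neighbour. The last place had passed to PIP1-5 in all 3 genotypes, against PIP2-5 without cold. Set among all genes by mean FPKM, PIP2-5 ranked 5495 in WT cold and 11480 in WT control, while PIP1-1 ranked 3973 in WT cold and 814 in WT control.

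**Figure D1:**
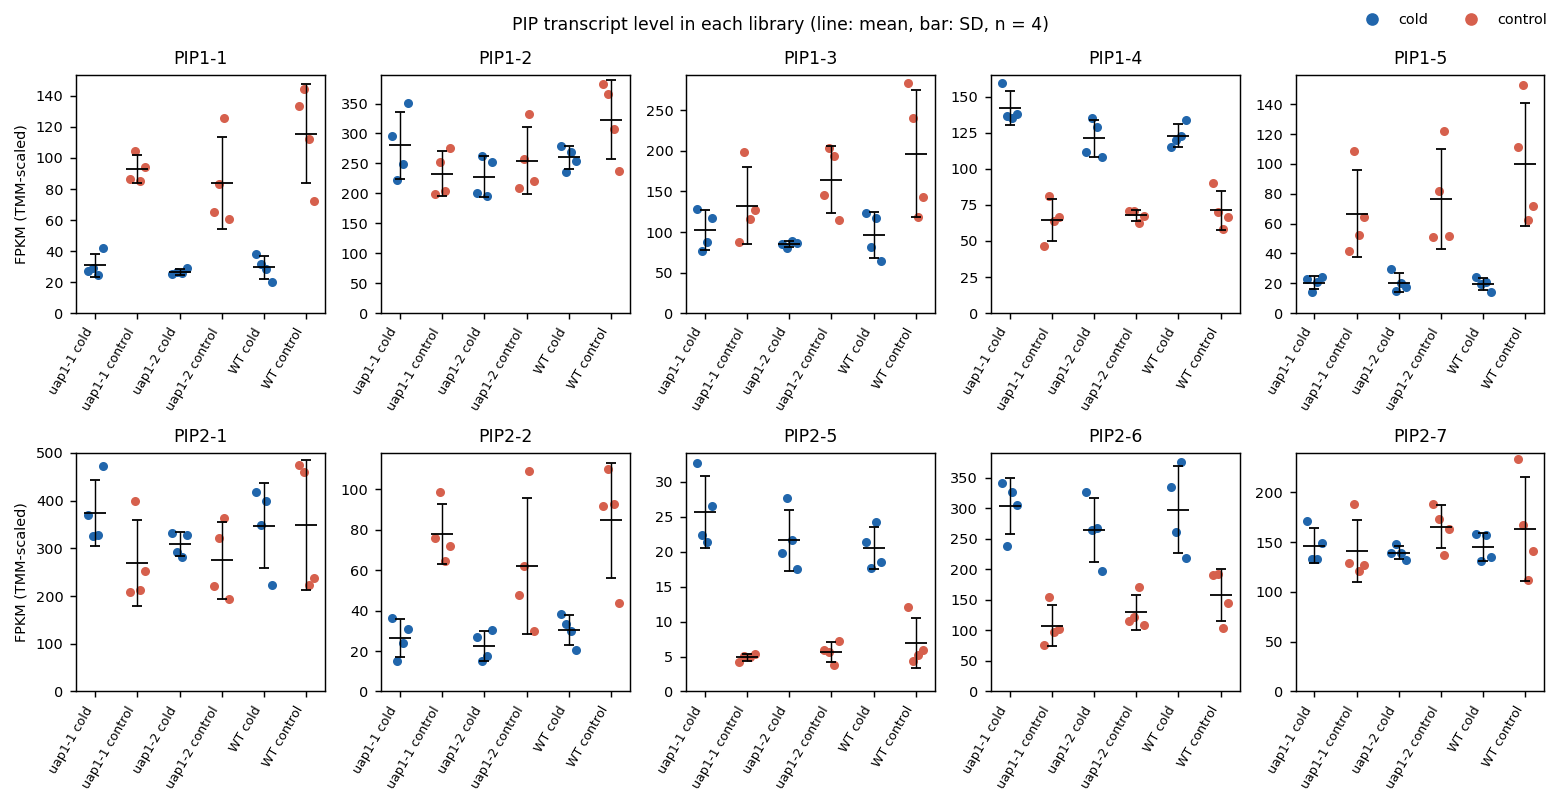
Transcript level (FPKM, TMM-scaled) of each PIP gene in all 24 libraries, with a panel per gene and a linear axis that differs between panels; points are libraries, lines the mean and bars the SD of 4. Cold libraries (blue) lie above control libraries (red) of the same genotype for PIP1-4, PIP2-5 and PIP2-6, and below them for PIP1-1 and PIP1-5.

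The cold changed most of the family in both directions. Tested by edgeR's quasi-likelihood method, with p-values adjusted by Benjamini-Hochberg over 21428 genes, 3 members rose and 3 fell in uap1-1, 3 rose and 4 fell in uap1-2, and 3 rose and 4 fell in WT. PIP1-4, PIP2-5 and PIP2-6 rose in every genotype, PIP1-1, PIP1-5 and PIP2-2 fell in every genotype, and PIP1-3 fell in uap1-2 and WT. The background was high: the same test called 55.9% of all genes in uap1-1, 52.5% in uap1-2 and 54.2% in WT. Higher calls made up 26.7% of genes in uap1-1, 26.5% in uap1-2 and 25.8% in WT, and lower calls 29.2%, 26.0% and 28.4% in the same order. With 6 or 7 of 10 called in this fit, the members were near what genes at large showed, and what follows describes which members moved and by how much. Scaling by library totals added lower calls, given below. The median log2 fold change of the 10 members was 0.16 in uap1-1, -0.20 in uap1-2 and -0.24 in WT, beside -0.07, -0.01 and -0.06 over all genes. The 3 genotypes' cold effects come from separate libraries.

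**Figure D2:**
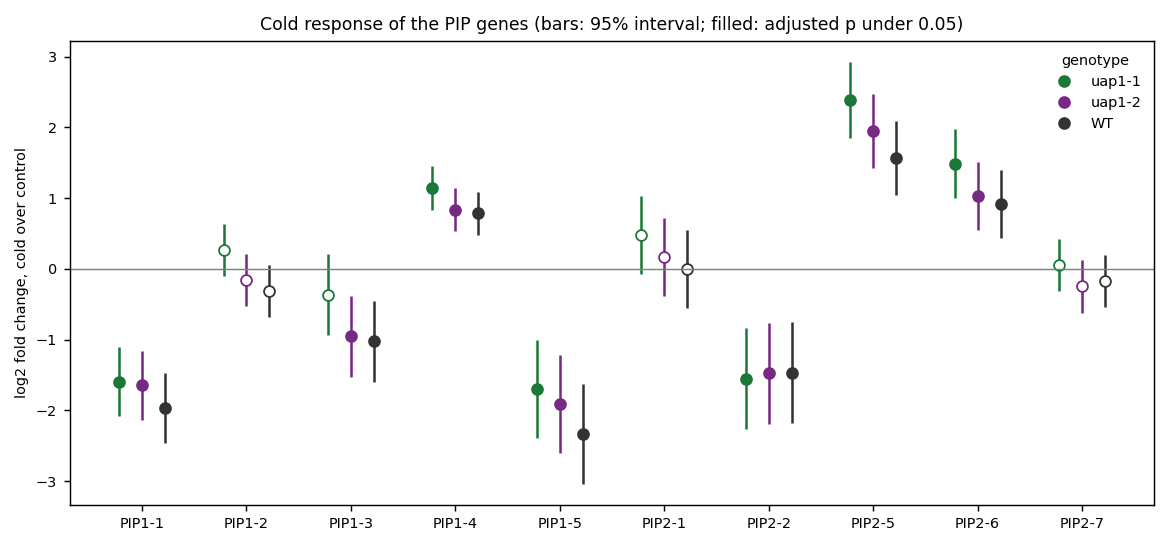
Log2 fold change of each PIP gene, cold over control, in uap1-1, uap1-2 and WT, with 95% intervals from edgeR; filled points have an adjusted p under 0.05. PIP1-4, PIP2-5 and PIP2-6 lie above 0 and PIP1-1, PIP1-5 and PIP2-2 below 0 in all 3 genotypes, with estimates between -2.33 and 2.39.

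PIP2-5, a PIP2 channel normally of low abundance and known as a member that drought raises, had the highest fold change of the family in each genotype. In uap1-1 it stood at 32.7, 22.4, 21.3 and 26.6 FPKM in the cold, against 4.19, 5.13, 4.95 and 5.33 FPKM without it. uap1-2 seedlings had 19.7, 27.7, 21.6 and 17.5 FPKM in the cold, against 5.87, 5.71, 3.72 and 7.19 FPKM without it. For WT the values were 21.4, 17.7, 24.3 and 18.6 FPKM in the cold, against 12.1, 4.30, 5.28 and 5.95 FPKM without it. Every cold library was above every control library of its genotype, and WT control library 1 was the highest of the unstressed libraries. The log2 fold changes were 2.39 (SE 0.26, adjusted p = 6.06e-08) in uap1-1, 1.94 (SE 0.25, adjusted p = 1.15e-06) in uap1-2 and 1.57 (SE 0.25, adjusted p = 1.51e-05) in WT. Its highest cold level, 32.7 FPKM, was still below the lowest level of PIP1-4 in any library, 46.3 FPKM. In the cold PIP2-5 thus stayed in the low tier of the family, where its range overlapped that of PIP1-5 in every genotype.

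PIP2-6, a channel expressed in rosette leaves and implicated in the hydraulics of their veins, rose in each genotype and had the largest difference of mean level among the members that rose. uap1-1 seedlings had 342, 238, 327 and 305 FPKM in the cold, against 76.8, 155, 96.9 and 103 FPKM without it. In uap1-2 it reached 327, 265, 268 and 198 FPKM in the cold, against 116, 122, 171 and 109 FPKM without it. WT libraries held 335, 261, 376 and 218 FPKM in the cold, against 191, 193, 105 and 144 FPKM without it. No cold library overlapped the control libraries of its own genotype. The log2 fold changes were 1.49 (SE 0.24, adjusted p = 1.34e-05) in uap1-1, 1.03 (SE 0.23, adjusted p = 7.79e-04) in uap1-2 and 0.91 (SE 0.23, adjusted p = 0.0021) in WT.

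PIP1-4 is a PIP1 channel that also passes hydrogen peroxide and is another member known to rise in drought. Its replicates in the cold were tight in all genotypes. The levels in uap1-1 were 159.6, 136, 135 and 138 FPKM in the cold, against 46.3, 81.3, 64.1 and 66.3 FPKM without it. Those in uap1-2 were 112, 135, 129 and 108 FPKM in the cold, against 71.0, 70.5, 62.5 and 67.2 FPKM without it. WT seedlings had 115, 120.1, 123 and 134 FPKM in the cold, against 90.2, 69.8, 58.5 and 66.7 FPKM without it. Again the cold and control ranges of a genotype did not overlap. By edgeR the log2 fold changes were 1.14 (SE 0.15, adjusted p = 9.07e-07) in uap1-1, 0.84 (SE 0.15, adjusted p = 5.23e-05) in uap1-2 and 0.79 (SE 0.15, adjusted p = 9.68e-05) in WT.

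Among the genes that fell, PIP1-5 had the largest fold change in each genotype with all libraries. It encodes a PIP1 channel whose role in the plant is less well known. In uap1-1 its level was 23.0, 14.0, 20.7 and 24.4 FPKM in the cold, against 41.9, 108, 52.6 and 64.2 FPKM without it. In uap1-2 it was 29.5, 14.6, 20.01 and 17.4 FPKM in the cold, against 50.8, 82.2, 122 and 51.4 FPKM without it. In WT it was 24.3, 19.5, 20.9 and 14.4 FPKM in the cold, against 112, 153, 62.6 and 71.7 FPKM without it. Cold libraries were uniformly low, and control libraries were both higher and far more spread, with 1 library above 100 FPKM in uap1-1, 1 in uap1-2 and 2 in WT. The log2 fold changes were -1.70 (SE 0.33, adjusted p = 1.63e-04) in uap1-1, -1.91 (SE 0.34, adjusted p = 5.07e-05) in uap1-2 and -2.33 (SE 0.34, adjusted p = 4.47e-06) in WT. The control libraries above 100 FPKM were those of TMM factor under 1. With them left out, PIP1-5 was at -1.61 in uap1-2 and -1.77 in WT. In uap1-1 the lowest log2 fold change of the family was then that of PIP1-1, at -1.54.

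PIP1-1, a PIP1 channel abundant in roots and close in sequence to PIP1-2 (87.6% coding identity), fell in the 3 genotypes. Its uap1-1 levels were 27.3, 29.3, 24.4 and 41.9 FPKM in the cold, against 86.7, 105, 85.0 and 94.3 FPKM without it. The uap1-2 levels were 25.1, 26.3, 26.1 and 29.2 FPKM in the cold, against 65.4, 82.9, 126 and 60.5 FPKM without it. WT levels were 38.4, 31.6, 28.1 and 20.2 FPKM in the cold, against 134, 144, 112 and 72.3 FPKM without it. The lowest control library of any genotype, at 60.5 FPKM, was above the highest cold library, at 41.9 FPKM. edgeR gave log2 fold changes of -1.59 (SE 0.23, adjusted p = 5.20e-06) in uap1-1, -1.65 (SE 0.24, adjusted p = 3.82e-06) in uap1-2 and -1.97 (SE 0.24, adjusted p = 3.13e-07) in WT. PIP1-2 itself was not called in any genotype, although it is the closest relative of PIP1-1.

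PIP2-2, a root water uptake channel in Arabidopsis, fell in every genotype with wider error. uap1-1 libraries had 36.5, 14.9, 24.1 and 30.8 FPKM in the cold, against 75.9, 98.8, 64.8 and 72.1 FPKM without it. In uap1-2 the values were 26.8, 14.8, 17.4 and 30.2 FPKM in the cold, against 47.5, 61.9, 109 and 30.0 FPKM without it. WT libraries had 38.1, 33.5, 29.8 and 20.7 FPKM in the cold, against 91.7, 110.2, 92.8 and 43.8 FPKM without it. Cold and control ranges were apart in uap1-1 and WT, and in uap1-2 they overlapped by a narrow margin, with a highest cold value of 30.2 FPKM and a lowest control value of 30.0 FPKM. The log2 fold changes were -1.55 (SE 0.35, adjusted p = 5.99e-04) in uap1-1, -1.48 (SE 0.35, adjusted p = 0.00103) in uap1-2 and -1.47 (SE 0.34, adjusted p = 9.73e-04) in WT. Since part of its sequence is shared with PIP2-3, its counts carry an uncertainty that the other members' do not.

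PIP1-3, the PIP1 channel closest in sequence to PIP1-4, was called lower in uap1-2 and WT. The uap1-1 values were 128, 76.6, 88.2 and 117 FPKM in the cold, against 87.4, 199, 116 and 127 FPKM without it. uap1-2 seedlings had 85.0, 80.0, 88.6 and 86.6 FPKM in the cold, against 146, 204, 194 and 115 FPKM without it. WT seedlings had 123, 81.6, 117 and 64.3 FPKM in the cold, against 283, 241, 119 and 143 FPKM without it. Ranges were apart in uap1-2, overlapped slightly in WT and overlapped widely in uap1-1. The log2 fold changes were -0.37 (SE 0.28, adjusted p = 0.267) in uap1-1, -0.95 (SE 0.28, adjusted p = 0.00619) in uap1-2 and -1.02 (SE 0.28, adjusted p = 0.00344) in WT. In WT the call rested on control libraries 1 and 2: with the 4 control libraries of TMM factor under 1 left out, the change was -0.45 with an adjusted p of 0.151. In uap1-1, scaling by library totals gave -0.77 with an adjusted p of 0.0035.

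PIP2-1, PIP1-2 and PIP2-7 were not called in any genotype, and they were among the family's more abundant members. PIP2-1 ranged over 326 to 472 FPKM in uap1-1 cold and 209 to 400.2 FPKM in uap1-1 control. The ranges were 281 to 332 FPKM in uap1-2 cold and 194 to 363 FPKM in uap1-2 control, and 222 to 419 FPKM in WT cold and 223 to 474 FPKM in WT control. The 95% intervals of its log2 fold change were -0.08 to 1.03 in uap1-1, -0.39 to 0.72 in uap1-2 and -0.56 to 0.55 in WT, so changes inside these intervals could not be told from 0. The estimate for PIP2-1 depended on a few control libraries. It was 0.48 in uap1-1 (adjusted p = 0.135), 0.73 without uap1-1 control library 2 (adjusted p = 0.0257) and 0.72 without the 4 control libraries of low TMM factor (adjusted p = 0.0054). In WT it was -0.00 (adjusted p = 0.993), and 0.58 without those 4 libraries (adjusted p = 0.045). Those libraries held the highest PIP2-1 levels of their groups, so leaving them out moves the estimates upward by construction. It also left 2 WT control libraries.

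PIP1-2 averaged 280.2 ± 56.5 FPKM in uap1-1 cold and 233 ± 37.4 FPKM in uap1-1 control, and 228 ± 34.2 FPKM in uap1-2 cold and 255 ± 55.5 FPKM in uap1-2 control (SD, n = 4 each). Its intervals were -0.11 to 0.64 in uap1-1, -0.53 to 0.21 in uap1-2 and -0.69 to 0.06 in WT. PIP2-7, whose traffic to the plasma membrane depends on the syntaxins SYP61 and SYP121, averaged 147 ± 17.9 FPKM in uap1-1 cold and 141 ± 31.4 FPKM in uap1-1 control. In WT it averaged 145 ± 14.3 FPKM in the cold and 163 ± 52.0 FPKM without it. Its log2 fold changes were 0.06, -0.25 and -0.17 in uap1-1, uap1-2 and WT, with intervals of -0.31 to 0.42, -0.62 to 0.12 and -0.54 to 0.20 in the same order. The calls of these genes moved with the choice of scaling. When libraries were scaled by their totals alone, PIP2-7 was called lower in all 3 genotypes, at -0.36, -0.45 and -0.33 (adjusted p = 0.0238, 0.0064 and 0.0368), and PIP1-2 was called lower in WT at -0.50 (adjusted p = 0.006). That scaling also moved the median of all genes to -0.50 in uap1-1, -0.20 in uap1-2 and -0.27 in WT. PIP2-7 then stood above that median in uap1-1 and below it in uap1-2 and WT. Without the 4 control libraries of low TMM factor, PIP2-7 was called lower in uap1-2 at -0.35 (adjusted p = 0.0187).

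With all libraries, the cold and control ranges of the family's summed transcript level overlapped in each genotype. The sums were 1452 ± 206 FPKM in uap1-1 cold and 1190 ± 286 FPKM in uap1-1 control. In uap1-2 they were 1237 ± 52.6 FPKM in the cold and 1285 ± 271 FPKM without it, and in WT 1370 ± 219 FPKM in the cold and 1567 ± 449 FPKM without it. These differences depended on the 4 control libraries of low TMM factor. Without uap1-1 control library 2 the uap1-1 control sums were 956 to 1188 FPKM, below the uap1-1 cold sums of 1214 to 1657 FPKM. Without these libraries the control means were 1055 FPKM in uap1-1, 1174 FPKM in uap1-2 and 1180 FPKM in WT, each below its cold mean, so the direction turned in uap1-2 and WT. The libraries left out held the highest PIP sums of their groups, so lower control means followed from that choice. It was made after seeing the data and left 2 WT control libraries, so it does not settle the direction. The make-up of the sum differed between cold and control. PIP1-4, PIP2-5 and PIP2-6 together held 32.6%, 32.8% and 32.3% of the sum in uap1-1, uap1-2 and WT cold seedlings, against 14.9%, 16.1% and 15.3% in the matching controls. PIP1-1, PIP1-3, PIP1-5 and PIP2-2 together held 12.3%, 12.5% and 12.7% in the cold, against 30.9%, 29.5% and 31.4% without it. The PIP1 group as a whole held 39.6%, 39.0% and 39.0% in the cold, against 49.7%, 50.2% and 51.7% without it. These groupings of rising and falling members follow from the tests above and are a description of the pool.

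**Figure D3:**
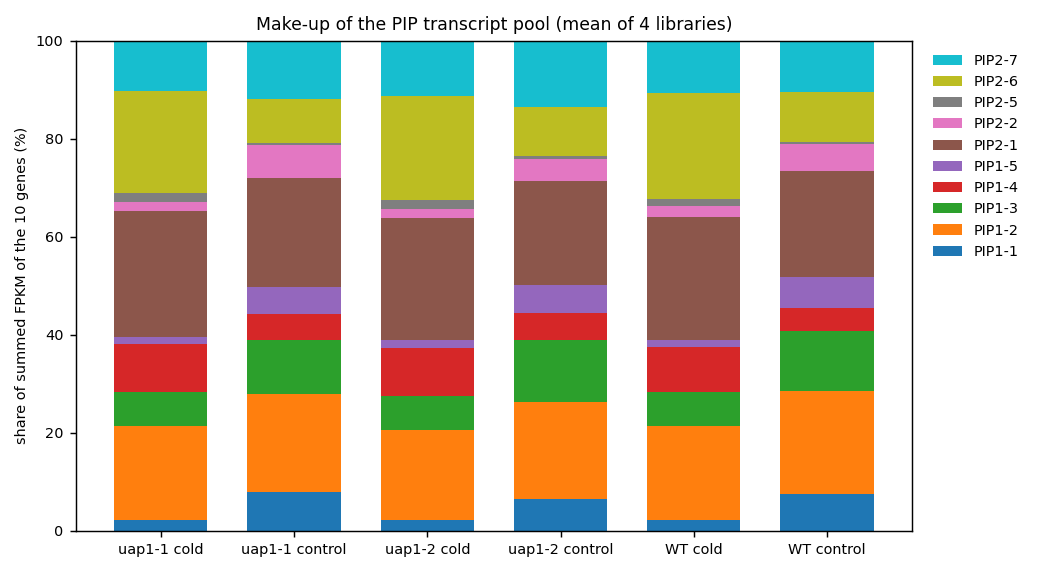
Share of the summed FPKM of the 10 PIP genes held by each gene, as the mean of 4 libraries in each group; bars are stacked to 100%. PIP2-6 and PIP1-4 take a wider band in the cold bars and PIP1-1, PIP1-3, PIP1-5 and PIP2-2 a narrower one, and the 3 risers together hold 32.3% in WT cold and 15.3% in WT control.

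For 3 of 5 pairs of related PIP genes examined, the ratio of the transcripts was separated by treatment. The pairs do not take in all close relatives, since PIP2-1 and PIP2-2, at 85.8% coding identity, were not examined. The log2 ratio of PIP1-4 over PIP1-3, which share 85% of their coding sequence, was 0.50 in uap1-1 cold and -0.998 in uap1-1 control, 0.50 in uap1-2 cold and -1.24 in uap1-2 control, and 0.40 in WT cold and -1.39 in WT control. PIP1-4 was thus the scarcer transcript of this pair without cold and, on average, the more abundant one with it. PIP1-1 over PIP1-2 stood at -3.20, -3.09 and -3.17 in uap1-1, uap1-2 and WT cold seedlings, against -1.32, -1.64 and -1.50 in the matching controls. PIP2-2 over its neighbour PIP2-3 stood at 1.13, 1.00 and 1.26 in the cold, against 2.80, 2.64 and 2.99 without it. For these 3 pairs the cold and control ratios of the 4 libraries did not overlap in any genotype. Each of them sets a gene called in the cold beside a gene called the other way or not called. The separation therefore restates those calls, and no share over other gene pairs was computed. PIP2-7 over PIP2-8 (84.0% coding identity) stood at 3.73, 3.71 and 3.88 in the cold, against 3.24, 3.36 and 3.51 without it, and its ranges overlapped in all 3 genotypes. PIP2-5 and PIP2-6, which both rose, are 77% identical, and their log2 ratio was -3.57, -3.61 and -3.84 in the cold, against -4.42, -4.54 and -4.59 without it, with ranges that overlapped in uap1-2. A ratio within a library does not depend on how libraries are scaled.

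**Figure D4:**
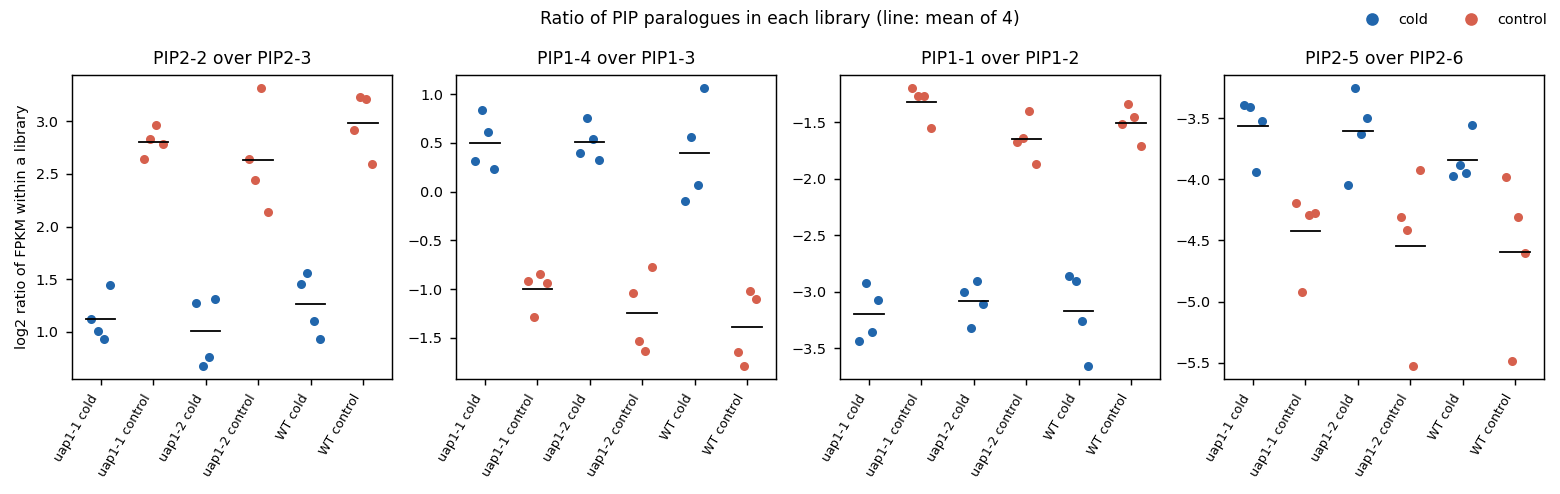
Log2 ratio of FPKM within each library for 4 pairs of related PIP genes; points are libraries and lines the mean of 4, and the axis differs between panels. PIP1-4 over PIP1-3 lies above the control libraries in every cold library (WT means 0.40 and -1.39), and PIP2-2 over PIP2-3 and PIP1-1 over PIP1-2 lie below them.

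No PIP gene was called between the genotypes. In every comparison between genotypes 0 of the 10 members were called by edgeR, and DESeq2 called 0 as well. Across all genes edgeR called 0.00467% for uap1-1 against WT without cold, which is 1 gene, and 0% for uap1-2 against WT without cold and for either mutant against WT in the cold. At an unadjusted p under 0.05 those 4 comparisons held 1961, 1152, 580 and 1014 of 21428 genes, and DESeq2 called 35, 13, 0 and 0 genes. Without cold, all 10 members had a negative estimate in uap1-1, between -0.58 and -0.12, and 9 of 10 had one in uap1-2, between -0.47 and 0.02. Without the 4 control libraries of low TMM factor 9 of 10 were negative in uap1-1, between -0.43 and 0.06, and 5 of 10 in uap1-2, between -0.54 and 0.48, and edgeR then called 9 genes in all for uap1-2 against WT, none of them a PIP gene. PIP1-2 and PIP2-6 had an unadjusted p under 0.05 in uap1-1. PIP1-2 levels were 199, 252, 204 and 276 FPKM in uap1-1 control, against 382, 365, 307 and 237 FPKM in WT control, with a log2 fold change of -0.47 (SE 0.18, adjusted p = 0.44). For PIP2-6 it was -0.55 (SE 0.23, adjusted p = 0.473), with overlapping ranges for both genes. The shared direction of 10 members is not 10 observations, since they were read in the same libraries: the summed PIP level was 2003 and 1906 FPKM in WT control libraries 1 and 2, and 1198 and 1163 FPKM in libraries 3 and 4.

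In the cold the estimates were between -0.20 and 0.33 for uap1-1 against WT, and between -0.45 and 0.08 for uap1-2 against WT, with 0 members at an unadjusted p under 0.05. The 95% intervals reached from -0.91 to 0.83 for uap1-1 and from -1.16 to 0.72 for uap1-2, so with 4 libraries per group differences inside these intervals could not be told from 0. Only PIP1-4 had separate ranges, by a narrow margin, at 135 to 159.6 FPKM in uap1-1 cold and 115.1 to 134 FPKM in WT cold. The share of all genes with separate ranges was not computed, so the separation is a description only. The log2 fold change of PIP1-4 by edgeR was 0.21 (SE 0.15, adjusted p = 0.994). The cold response of a mutant minus that of WT was tested as well, and 0 of 10 members were called for either mutant, beside 0% of all genes (1842 of 21428 genes at an unadjusted p under 0.05 for uap1-1 and 371 for uap1-2; 1 and 0 called by DESeq2). For uap1-1 the differences lay between -0.08 and 0.82, 9 of 10 positive, and 2 members had an unadjusted p under 0.05. These were PIP2-5, at 0.82 (SE 0.35, adjusted p = 0.533), and PIP1-2, at 0.58 (SE 0.25, adjusted p = 0.544). For uap1-2 they lay between -0.08 and 0.42. Without the 4 control libraries of low TMM factor the differences lay between -0.26 and 0.54 for uap1-1 and between -0.54 and 0.25 for uap1-2, with 0 called. PIP1-3 was called in uap1-2 and WT and not in uap1-1, and its difference of responses between uap1-1 and WT was 0.66 (SE 0.39, adjusted p = 0.633), so the responses were not shown to differ. Between the mutants, uap1-2 against uap1-1, 0 of 10 members were called without cold (background 0.00933%, which is 2 genes) or in the cold (background 0%), with 0 members at an unadjusted p under 0.05 in either. The estimates were positive for 8 of 10 members without cold and negative for all 10 in the cold, between -0.30 and -0.01. Without cold 1354 of 21428 genes had an unadjusted p under 0.05, DESeq2 called 23 and limma on log2(FPKM + 1) called 39. In the cold 2368 genes had an unadjusted p under 0.05 and DESeq2 called 3. Same-numbered libraries of uap1-1 cold and uap1-2 cold deviated together, and with the replicate number as a block in a fit of these groups alone, edgeR called 2222 of 21428 genes (background 10.4%). In that paired fit 0 of the 10 PIP genes were called, 2 had an unadjusted p under 0.05, and the lowest adjusted p was 0.145, for PIP2-1 at -0.28.

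**Figure D5:**
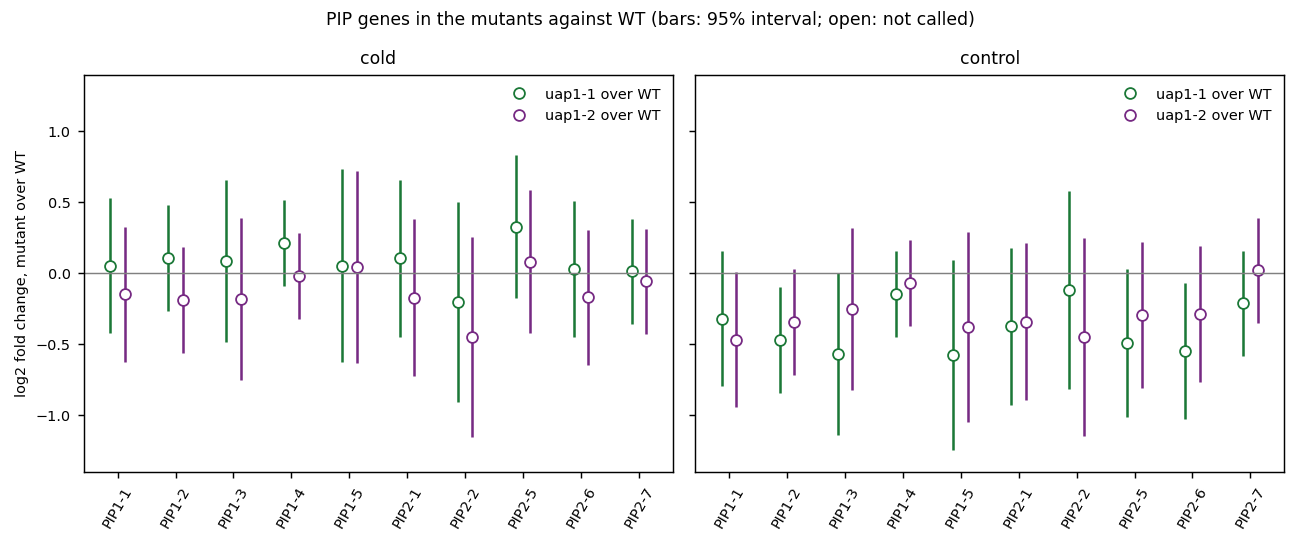
Log2 fold change of each PIP gene in uap1-1 and in uap1-2 over WT, in the cold (left) and without it (right), with 95% intervals from edgeR; open points are not called. No gene is called, the cold estimates scatter between -0.45 and 0.33, and the control estimates lie mostly below 0, between -0.58 and 0.02.

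Within groups most PIP genes varied together from library to library. Over 24 libraries the 45 pairs of members had Pearson correlations of log2 CPM between -0.88 and 0.96, with a median of 0.24. After the 6 group means were subtracted, 41 of 45 pairs were positive and the median was 0.59. PIP1-3 and PIP2-1 were the pair most alike within groups, at 0.92, and PIP2-2 and PIP2-5 the least, at -0.25. PIP2-5 followed the family mean least of all members, at 0.34, where PIP1-3 reached 0.97. Each member is itself part of that mean, which raises its correlation. These points share their libraries and depth, and the values are descriptions. The non-members whose profile was most like the family mean over 24 libraries were AT3G57990, FAH2, AT3G18060, GRF6 and GAPB, with Pearson correlations between 0.90 and 0.92. None of them was called in the cold in any genotype. That mean averages members that rose and members that fell, and the members' own correlations with it ran from 0.02 for PIP2-5 to 0.84 for PIP2-1. After subtraction of group means the most similar non-members were PSBO2, ARF1A1C, GME, AT3G57990 and FBA1, each at 0.94. That was above every member but PIP1-3, so the shared variation within groups was not confined to PIP genes.

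Root and shoot marker levels were set beside the PIP values because the family differs between organs. Of 14 root markers 13 were tested in the cold, and 2 rose and 3 fell in uap1-1, 3 rose and 0 fell in uap1-2, and 3 rose and 1 fell in WT. Their summed FPKM in uap1-1 lay between 40.0 and 64.0 with cold, against 38.0 and 48.5 without. In uap1-2 it lay between 32.1 and 56.7 with cold, against 26.4 and 35.8 without. WT sums were 49.1 to 59.3 in WT cold and 26.9 to 50.9 in WT control. Of 12 shoot markers 7 rose in uap1-1, 4 in uap1-2 and 4 in WT, and none fell. Over all genes 26.7%, 26.5% and 25.8% were called higher and 29.2%, 26% and 28.4% lower, in the same order. Shoot marker sums in uap1-1 were between 283 and 371 FPKM with cold, against 158 and 195 FPKM without. In uap1-2 they were between 246 and 376 FPKM with cold, against 182 and 280.2 FPKM without. WT sums were 249.9 to 313 FPKM in WT cold and 166 to 326 FPKM in WT control. Their part in the PIP results was not tested.

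The other members of the family were low and were not called. PIP2-3, PIP2-4 and PIP2-8 had log2 fold changes in the cold of 0.10, -0.10 and -0.39 in uap1-1, 0.22, 0.43 and -0.59 in uap1-2, and 0.28, 0.35 and -0.57 in WT. Their summed level was 20.6 to 34.7 FPKM in uap1-1 cold and 23.6 to 33.2 FPKM in uap1-1 control, and 20.9 to 28.9 FPKM in WT cold and 21.6 to 38.7 FPKM in WT control. The 10 members described above therefore held nearly all PIP transcript in these seedlings.

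Among the tonoplast intrinsic proteins (TIPs), the aquaporins of the vacuolar membrane, every call in the cold was lower. Of 10 TIP genes 6 were tested, and 4 fell in uap1-1, 3 in uap1-2 and 3 in WT. Lower calls made up 29.2%, 26% and 28.4% of all genes in the same order. TIP2-1 averaged 41.2 FPKM in uap1-1 cold and 159 FPKM in uap1-1 control, 38.1 FPKM in uap1-2 cold and 203 FPKM in uap1-2 control, and 39.8 FPKM in WT cold and 210.3 FPKM in WT control, with a log2 fold change of -2.40 (SE 0.32, adjusted p = 1.29e-06) in WT. TIP2-2 and TIP1-2 fell in WT at -2.24 (SE 0.34, adjusted p = 7.29e-06) and -1.63 (SE 0.27, adjusted p = 2.27e-05). TIP1-1 was not called, with 0.15 (SE 0.19, adjusted p = 0.506) in WT. The summed TIP level lay at 336 to 443 FPKM in WT cold and 664 to 1293 FPKM in WT control, ranges that did not overlap, unlike those of the PIP sum.

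Of 9 nodulin 26-like intrinsic protein (NIP) genes 7 were tested, and 1 rose and 3 fell in uap1-1, 3 rose and 1 fell in uap1-2, and 1 rose and 2 fell in WT. The share of all genes called in either direction was 55.9%, 52.5% and 54.2% in the same order. NIP6-1, a boric acid channel of young shoot tissue, rose in all 3 genotypes, at 2.85 (SE 0.24, adjusted p = 1.05e-09) in uap1-1, 2.57 (SE 0.24, adjusted p = 5.34e-09) in uap1-2 and 2.21 (SE 0.23, adjusted p = 4.03e-08) in WT. NIP1-2 and NIP2-1 fell in WT, at -0.94 (SE 0.20, adjusted p = 3.90e-04) and -1.11 (SE 0.43, adjusted p = 0.0339); NIP2-1 was at under 1 FPKM on average in each WT group. Of the 3 small basic intrinsic proteins (SIPs) of the endoplasmic reticulum, SIP1-1 rose in uap1-1, at 0.44 (SE 0.15, adjusted p = 0.0134), and 0 were called in uap1-2 or WT.

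A list of 18 genes known to act on PIP proteins or genes, chosen for their literature roles, was followed in the same fit. In uap1-1 5 rose and 6 fell, in uap1-2 3 rose and 6 fell, and in WT 3 rose and 6 fell. The same test called 55.9%, 52.5% and 54.2% of all genes in these genotypes, so the list was near what genes at large showed. TSPO, a stress-induced membrane protein that binds PIP2-7 and leads it to degradation, averaged 60.2 FPKM in uap1-1 cold and 0.225 FPKM in uap1-1 control, 25.8 FPKM in uap1-2 cold and 0.291 FPKM in uap1-2 control, and 30.7 FPKM in WT cold and 0.747 FPKM in WT control. Its log2 fold change was 8.04 (SE 0.66, adjusted p = 7.91e-10) in uap1-1, 6.43 (SE 0.62, adjusted p = 1.20e-08) in uap1-2 and 5.38 (SE 0.57, adjusted p = 4.47e-08) in WT, from control counts of 3 to 28 reads per library. OST1, a kinase of abscisic acid signalling that phosphorylates PIP2-1 in guard cells, rose at 1.81 (SE 0.23, adjusted p = 9.22e-07) in uap1-1, 2.27 (SE 0.24, adjusted p = 4.23e-08) in uap1-2 and 1.98 (SE 0.24, adjusted p = 2.62e-07) in WT. RMA2, of the membrane-anchored ubiquitin ligases whose relative RMA1 targets PIP2-1, fell at -2.39 (SE 0.30, adjusted p = 6.78e-07) in uap1-1, -2.93 (SE 0.31, adjusted p = 4.57e-08) in uap1-2 and -3.06 (SE 0.31, adjusted p = 2.29e-08) in WT. TG, an ERF-type transcription factor reported to act on aquaporin promoters, fell at -2.79 (SE 0.29, adjusted p = 2.73e-08) in uap1-1, -2.16 (SE 0.28, adjusted p = 9.89e-07) in uap1-2 and -2.002 (SE 0.28, adjusted p = 2.24e-06) in WT. PIP2-7 and PIP2-1, the PIPs named with these regulators, were not called at the transcript level in any genotype with TMM scaling and all libraries. Both were called in some genotypes under other settings, as given above, and protein was not measured.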

How the data were processed

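Per the labels' protocols, poly(A) RNA from whole seedlings was sequenced in pairs; strand settings are not given in the sources used here. The submitters' processing notes name HISAT2 2.2.1, StringTie 1.3.3b, HTSeq 0.6.1, DESeq2 1.26.0 and the build TAIR10. The authors deposited whole-number read counts and FPKM for 32833 genes; the deposited FPKM equalled count over exonic length and library total within 0.005. Counts were tested with edgeR 4.0.16 in R 4.3.3: filterByExpr (minimum count 10, minimum total 15), TMM, 6 group means over 24 libraries, glmQLFTest and Benjamini-Hochberg adjustment over the 21428 genes kept, with adjusted p under 0.05 called. The SE is the size of the log2 fold change over the square root of F. All 10 PIP genes passed the filter.

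Alternatives were other scalings, no filter, DESeq2 1.42.0, limma 3.58.1 on log2(FPKM + 1) and log2(FPKM + 0.1), only the groups compared, a replicate block and each library left out. Leaving out 4 control libraries was chosen after seeing the data. Same-numbered libraries deviated together in 1 of 15 pairs of groups, uap1-1 cold and uap1-2 cold, with correlations of 0.23 to 0.54, each library best with its own number; the labels do not say what the number marks. A paired fit of these groups was therefore added after seeing the data. Named genes are the 10 members, the other PIPs, up to 4 genes per list with the smallest adjusted p in WT, and 5 genes of most similar profile in each of 2 measures. SIP1-1 was named after its values were seen, as were the other TIP and PIP comparisons outside that rule. Members and lists were chosen with earlier results of these data known. The labels call replicates independent, and p-values set a difference against the spread between these libraries, taken as independent. For uap1-2 against uap1-1 in the cold the unpaired p-values do not account for same-numbered libraries deviating together. The test was tried on simulated counts before use.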

Additional observations from a re-analysis of the deposited data

Results flagged for a closer look

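Of 60 combinations of a PIP gene and a group of 4 libraries, 2 held a library that stood far from the other 3, and chance alone gives about 1 in 20. PIP1-4 in uap1-1 cold library 1 was at 159.6 FPKM, above the next highest library at 137.8 FPKM. PIP2-7 in uap1-1 control library 2 was at 188.0 FPKM, above the next at 128.8 FPKM. The uap1-1 control library 2 is 1 of the 4 control libraries with a TMM factor under 1. PIP1-4 kept its call in uap1-1 without cold library 1, and PIP2-7 was not called in uap1-1 without control library 2. No difference of cold response between a mutant and WT was called among the 20 tested by edgeR, with a lowest adjusted p of 0.533 and 2 at an unadjusted p under 0.05.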

How the results depend on the processing

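The counts of members called in the cold were 6 in uap1-1, 7 in uap1-2 and 7 in WT, and leaving out each of the 24 libraries gave 6 to 7, 7 to 7 and 7 to 7. Counts for the comparisons between genotypes were 0 to 0. Scaling by library totals and both limma settings added lower calls in the cold. These were PIP1-3 and PIP2-7 in uap1-1, PIP2-7 in uap1-2, and PIP1-2 and PIP2-7 in WT. With library totals or limma in place of TMM, PIP2-7 in uap1-1 turned to -0.36 with library totals, -0.35 with limma on log2(FPKM + 1) and -0.35 on log2(FPKM + 0.1), against 0.06. The deposited FPKM values carry no TMM scaling, so limma shares the scaling of library totals. With the 4 control libraries of TMM factor under 1 left out, PIP2-1 in WT turned to 0.58, against -0.00, and members called came to 7 in uap1-1, 8 in uap1-2 and 7 in WT. Of 3640 values recomputed, 135 changed sign while not called in either setting, the largest of size 0.44. Library totals moved the share of higher calls among all called genes to 25.8% in uap1-1, 37.5% in uap1-2 and 35.4% in WT, against 47.8%, 50.5% and 47.6% with TMM. Between genotypes, genes called for uap1-1 against WT without cold numbered 1 by edgeR, 35 by DESeq2, 4 with library totals and 37 and 11 by limma with pseudocounts of 1 and 0.1; for uap1-2 against WT without cold they numbered 0, and 13 by DESeq2, 9 without the 4 control libraries and 1 without uap1-2 control library 3; for uap1-2 against uap1-1 without cold they numbered 2, 23 by DESeq2, and 39 and 2 by limma. Leaving out 1 library gave up to 6 genes called in these comparisons, for uap1-1 against WT without cold without uap1-2 control library 3 and for uap1-2 against uap1-1 in the cold without uap1-1 cold library 2. The replicate block left the counts at 6, 7 and 7 in the cold and 0 elsewhere; over 60 pairs of same-numbered libraries the correlation of deviations ran from -0.53 to 0.54, 23 were over 0.1 and 17 were best with their own number. In 1 of 15 pairs of groups, uap1-1 cold and uap1-2 cold, all 4 were over 0.1, and the block in a fit of these groups alone, added after seeing the data, called 2222 genes, against 0, with 0 members among them. Leaving out uap1-1 control library 2 added a call of PIP2-1 in uap1-1. With 4 libraries per group, log2 differences inside the intervals given could not be told from 0.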
